A study of Homo sapiens with 18 samples.

Results

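Cells of the 786-O line carrying hairpin sh52 were compared with cells carrying hairpin sh50, both directed at USP13. The 6 libraries (3 sh52, 3 sh50) were chosen by their titles, out of 18 in the series, and the 3 control-hairpin libraries of the same experiment (shCtrl) were kept beside them. 786-O is an established clear-cell renal carcinoma line without functional VHL, the ubiquitin ligase subunit that marks HIF-α for degradation. All 9 libraries came from this line grown in serum-containing medium, with polyadenylated RNA read in pairs without strand information. The labels describe an inducible lentiviral vector among the study's USP13 tools but do not say which vector, inducer exposure or time applied to these libraries, and give the control hairpin no sequence. They call the libraries triplicates without stating separate cultures, so the p-values measure the spread between these samples only, which may be technical. Total counts were 12484640 to 14027133 per library under sh52, 11192561 to 16511290 under sh50 and 12657543 to 15990217 under shCtrl.

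A short hairpin RNA is cut in the cell to a duplex of about the length of a microRNA. One strand, the guide, is loaded onto an Argonaute protein and directs cleavage of a fully matching mRNA, while its seed near the 5′ end can also pair with short matches in other mRNAs. Hairpins to different sites of one mRNA therefore share their target and usually differ in their seeds. USP13 is a deubiquitinase, an enzyme that removes ubiquitin chains from proteins, and is a close relative of USP5.

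The strands of both hairpins are shown because the hairpins share their intended mRNA and differ in sequence, seeds included. The guide was taken as the reverse complement of the target in the labels, and capitals mark bases 2 to 8, counted from the 5′ end.
sh52 guide: aATGAGTTcagatttcaccgg
sh52 passenger: cCGGTGAAatctgaactcatt
sh50 guide: tATCAATTggttcatcaggcg
sh50 passenger: cGCCTGATgaaccaattgata
Each target is 21 bases long with a GC content of 42.86%. The guide seeds, ATGAGTT for sh52 and ATCAATT for sh50, are not identical but hold the same base at several positions. The sh52 target lies at chr3:179730662-179730682 (GRCh38, plus strand), in the coding part of exon 10 of 21 of USP13, and is present in 4 of 5 annotated USP13 transcripts. The sh50 target lies at chr3:179757054-179757074, in the coding part of exon 16 of 21, and is present in 3 of 5. USP13 was the only gene whose annotated transcripts held either target in full. Allowing up to 3 mismatches, the sh52 guide also matched ST3GAL3, and the sh52 passenger matched C9orf72, IDO1 and VSTM2A, while the sh50 guide matched no further gene. ST3GAL3 (log2 difference -0.032, SE 0.14; edgeR, adjusted p = 0.916) and C9orf72 (log2 difference -0.14, SE 0.17; edgeR, adjusted p = 0.68) did not pass the test, and IDO1 and VSTM2A were too low to be tested.

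The first question was how near the knockdowns were. Levels are in CPM, read counts divided by library size after TMM scaling (a trimmed mean of log ratios between libraries) and set to a common total, and differences as log2 of sh52 over sh50 unless another pair is named. USP13 measured 14.8, 18.1 and 17.9 CPM under sh52, 16.8, 17.1 and 20.5 CPM under sh50, while the shCtrl libraries had 36.9, 34.7 and 31.8 CPM. The sh52 and sh50 values overlapped, and all 6 lay below the control values. The log2 difference between the hairpins was -0.11 (SE 0.11, 95% interval -0.34 to 0.13; edgeR, adjusted p = 0.611), so that differences within that interval could not be told apart at this depth and number of libraries. Against shCtrl, USP13 fell by 1.03 on the log2 scale under sh52 (SE 0.11) and by 0.92 under sh50 (SE 0.11), with edgeR adjusted p-values of 3.3e-07 and 6.38e-07. USP5 did not pass (log2 difference -0.10; edgeR, adjusted p = 0.322). ZHX2 averaged 137.7 CPM under sh52 and 134.4 CPM under sh50 (log2 difference 0.035; edgeR, adjusted p = 0.749).

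**Figure D1:**
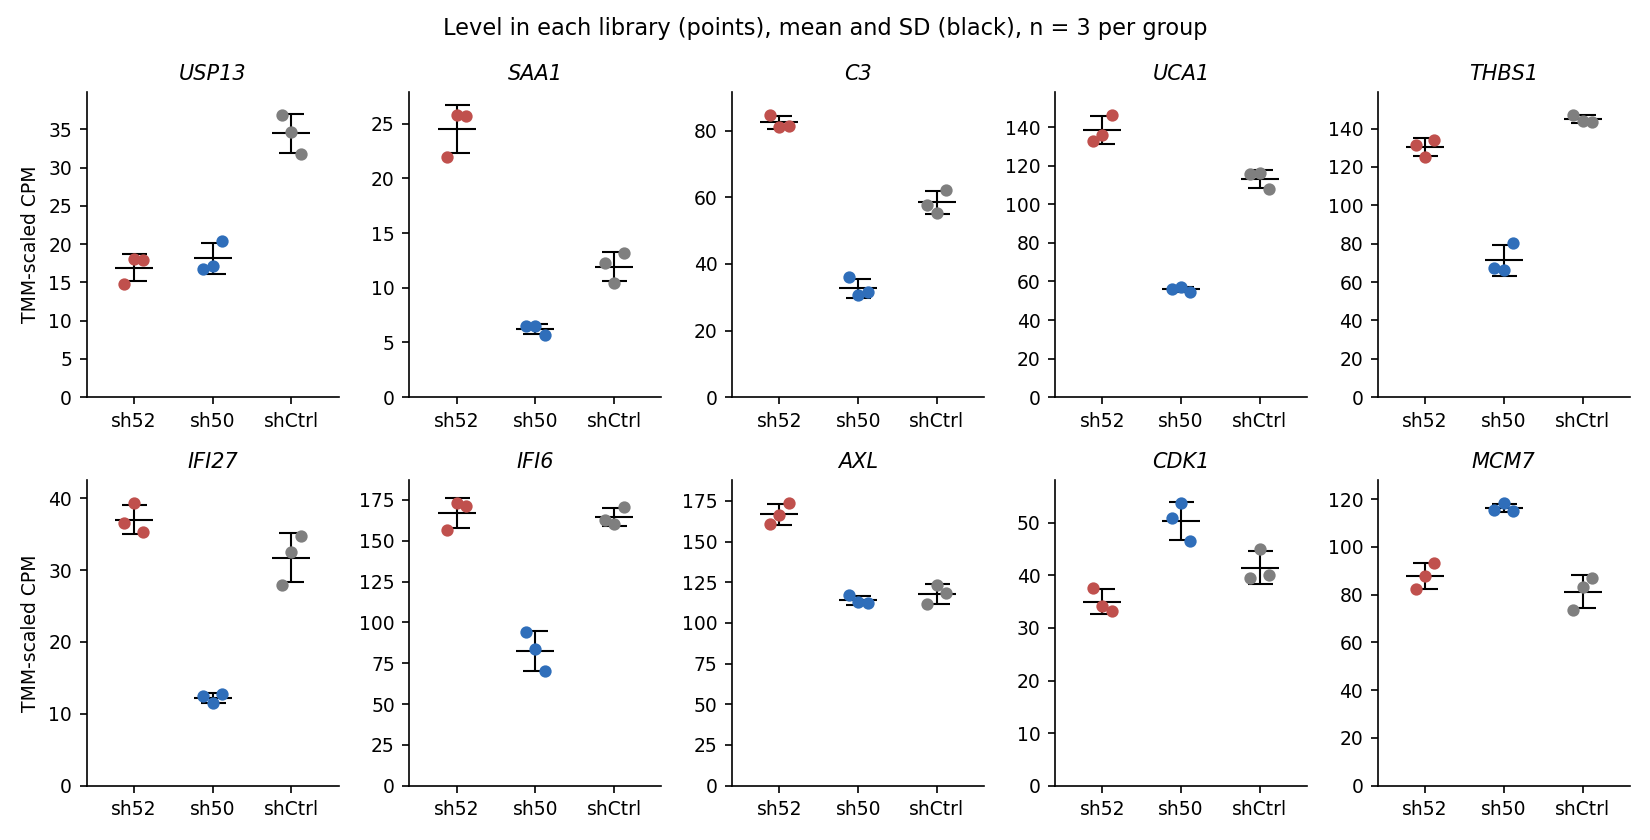
TMM-scaled CPM of 10 genes in each library of sh52, sh50 and shCtrl (points), with the mean and SD of 3 libraries in black and the axis starting at 0. USP13 lies between 14.8 and 20.5 CPM in all 6 knockdown libraries, while SAA1, C3, UCA1, THBS1, IFI27, IFI6 and AXL are higher in every sh52 than in every sh50 library and CDK1 and MCM7 are lower.

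Across the transcriptome 1401 of 13715 genes tested differed between the hairpins at an edgeR adjusted p under 0.05, a share of 10.2%. Of these, 751 were higher in sh52 (5.48%) and 650 were lower (4.74%). Most differences were small, with a median size of 0.32 on the log2 scale among the genes that passed, and 86.2% of them under 1.5-fold. Past 2-fold, 45 genes were higher in sh52 and 17 were lower. The 3 sh52 values all lay above the 3 sh50 values in 13.9% of genes and all below them in 13.1%. The median log2 difference over all genes was -0.0012. The count depended on single libraries, and was 685 without sh50 replicate 2 and 839 without sh50 replicate 1, and 532 of the 1401 genes passed whichever of the 9 libraries was left out.

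Technical measures also differed between the groups. Library sh52 replicate 1 stood apart from its group on principal component 2, where it scored -35.7 and sh52 replicates 2 and 3 scored -2.84 and -7.00, and it held 15490 detected genes, with at least 15945 in each other library of the experiment. Mitochondrial rRNA took 3.54% to 3.80% of counts under sh52, 4.11% to 4.42% under sh50 and 2.54% to 2.70% under shCtrl, and the difference between sh52 and sh50 had the smallest p that an exact permutation test over 3 against 3 libraries can give (p = 0.1, two-sided). Their part in the gene results was not tested.

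Before the gene groups, the genes with the largest differences are described. They were picked among genes that passed with at least 5 CPM in a hairpin group and no overlap of the sh52 and sh50 values. Their lack of overlap is therefore a condition of the choice and not a result. Higher in sh52 at the top of the ranking stood the acute-phase gene SAA1, which measured 22.0, 25.8 and 25.7 CPM under sh52, 6.53, 6.53 and 5.71 CPM under sh50, and 11.9 CPM on average under shCtrl. The hairpin groups lay on either side of the control (log2 difference 1.97, SE 0.13; edgeR, adjusted p = 1.84e-10). SAA1 has a near-identical copy, SAA2, with which it can exchange reads in the deposited estimates, and SAA2 differed in the same direction at lower levels (log2 difference 2.86, SE 0.69; edgeR, adjusted p = 0.00806). C3, the central component of the complement cascade, measured 84.8, 81.1 and 81.5 CPM under sh52 and 36.0, 30.6 and 31.7 CPM under sh50 (log2 difference 1.34, SE 0.077; edgeR, adjusted p = 1.23e-11). UCA1, a long noncoding RNA first described in urothelial carcinoma, measured 132.7, 135.7 and 146.5 CPM under sh52 and 56.0, 57.2 and 54.8 CPM under sh50 (log2 difference 1.30, SE 0.063; edgeR, adjusted p = 3.82e-13). The sh50 values of UCA1 varied little among themselves.

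The other genes among the 12 that were highest in sh52 were IFI27, COL9A2, LCN2, EPSTI1, SLC47A2, CTSS, DEFB1, GMNC and ANO9, with log2 differences of 1.05 to 1.59. They include the collagen IX chain COL9A2, the siderophore-binding lipocalin LCN2, the organic cation exporter SLC47A2, the cysteine protease cathepsin S (CTSS) and the antimicrobial peptide DEFB1. CTSS measured 14.8, 12.5 and 14.1 CPM under sh52 and 7.33, 5.65 and 5.71 CPM under sh50, with 15.2 CPM on average under shCtrl (log2 difference 1.17, SE 0.14; edgeR, adjusted p = 4.55e-06). LCN2 measured 7.99, 7.59 and 6.03 CPM under sh52 and 4.02, 2.31 and 2.52 CPM under sh50 (log2 difference 1.32, SE 0.23; edgeR, adjusted p = 0.000492). As for all genes of this ranking, the lack of overlap was required by the choice.

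The 12 genes that were lowest in sh52 were RCAN2, AKR1B10, RAC3, PAXIP1-DT, CELF6, FAM200C, LTBP2, ZMAT1, C21orf58, PLPP7, HABP2 and MCF2L, with log2 differences of -1.19 to -0.84. Most of them stood at a few CPM. AKR1B10, an aldo-keto reductase that responds to NRF2, measured 4.81, 5.41 and 5.31 CPM under sh52, 9.57, 12.5 and 11.5 CPM under sh50, and 10.3 CPM on average under shCtrl (log2 difference -1.12, SE 0.16; edgeR, adjusted p = 3.93e-05). RCAN2, a regulator of the phosphatase calcineurin, measured 2.69, 3.63 and 2.15 CPM under sh52, 5.19, 6.87 and 7.03 CPM under sh50, and 2.66 CPM on average under shCtrl (log2 difference -1.19, SE 0.24; edgeR, adjusted p = 0.00144). AKR1B10 under sh52 and RCAN2 under sh50 were thus the values away from the control. The call of MCF2L, a guanine nucleotide exchange factor, did not hold without sh50 replicate 1, 2 or 3 or without sh52 replicate 3 (edgeR, adjusted p up to 0.142), whereas the other 23 of these 24 genes passed whichever library was left out.

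The genes induced by type I interferon were mostly higher in sh52. Type I interferon is a secreted antiviral cytokine, whose receptor acts through JAK1, TYK2 and factors such as STAT2 and IRF9 on promoters with an interferon-stimulated response element (ISRE), and many of the genes it induces bind or degrade viral RNA. Of 43 measured members 33 were higher in sh52 and 0 lower (76.7%, beside 5.48% of all genes), with a median log2 difference of 0.41. In 38 of the 43 all sh52 values lay above all sh50 values, as they did in 13.9% of all genes tested. The mean log2 level over the members, relative to the control mean, was -0.056, -0.0092 and -0.054 in the sh52 libraries, -0.46, -0.50 and -0.47 in the sh50 libraries, and -0.015, 0.055 and -0.040 in the control libraries. The sh52 libraries thus lay within 0.06 of the control mean and the sh50 libraries well below it. Of the 33 members, 25 passed whichever library was left out, and the count ranged from 27 to 33.

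**Figure D2:**
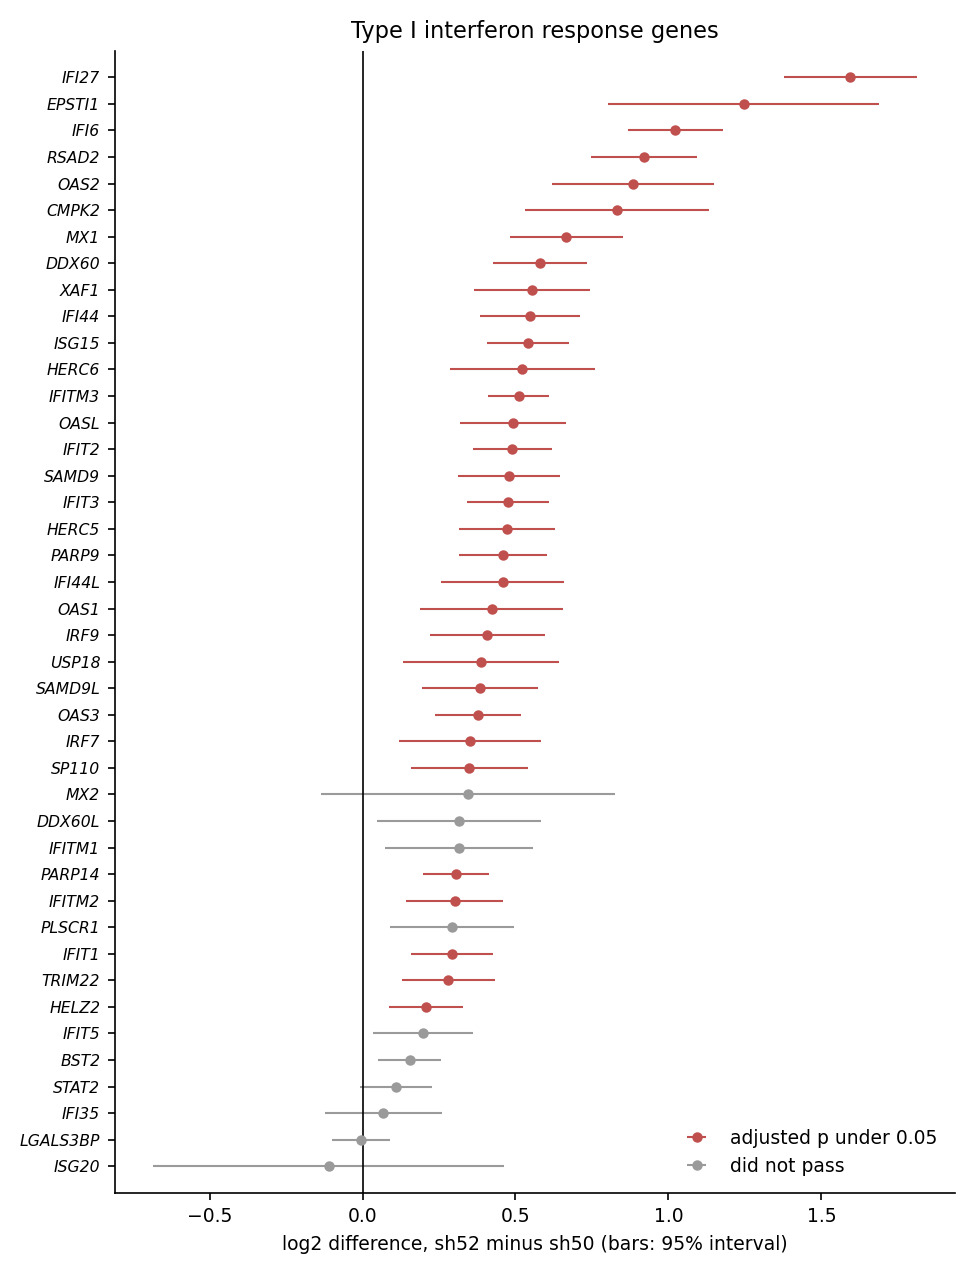
Log2 difference between sh52 and sh50 for 42 of the 43 measured type I interferon response genes, with its 95% interval from the edgeR fit (red: adjusted p under 0.05; grey: did not pass). The 32 members shown that passed all lie to the right of 0, led by IFI27 at 1.59, and ISG20 and LGALS3BP are the 2 members with values below 0.

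IFI27, an interferon-induced mitochondrial protein, measured 36.6, 39.3 and 35.2 CPM under sh52, 12.4, 11.5 and 12.8 CPM under sh50 and 31.8 CPM on average under shCtrl (log2 difference 1.59, SE 0.10; edgeR, adjusted p = 1.67e-10). IFI6, its relative, measured 156.6, 173.0 and 171.1 CPM under sh52, 94.0, 83.5 and 69.9 CPM under sh50 and 164.5 CPM on average under shCtrl (log2 difference 1.02, SE 0.076; edgeR, adjusted p = 1.24e-09). In both genes the sh50 libraries were the ones away from the control. RSAD2, the antiviral enzyme viperin, measured 71.3, 75.3 and 81.5 CPM under sh52 and 38.6, 36.7 and 44.9 CPM under sh50 (log2 difference 0.92). OAS2, which makes the oligoadenylates that activate RNase L, had a log2 difference of 0.88, EPSTI1 of 1.25, and CMPK2, a mitochondrial nucleotide kinase, of 0.83. Of the factors that carry the signal, IRF9 had a log2 difference of 0.41 and passed, whereas STAT2 at 0.11 did not. Against shCtrl, 2 members were higher and 4 lower under sh52, where 5.45% of all genes were higher and 6.56% lower, and 1 was higher and 32 lower under sh50, where 10.2% of all genes were higher and 11.3% lower; both comparisons share the control libraries.

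Sensors of double-stranded RNA and the parts of interferon signalling showed smaller differences in the same direction. Of 25 measured members 8 were higher in sh52 and 0 lower (32%, beside 5.48% of all genes, median log2 difference 0.22). IFIH1, which encodes the sensor MDA5, measured 59.6, 60.2 and 61.7 CPM under sh52 and 41.0, 38.9 and 47.2 CPM under sh50 (log2 difference 0.51; edgeR, adjusted p = 0.000121). RIGI, a sensor of RNA with a 5′ triphosphate, measured 45.5, 43.8 and 43.4 CPM under sh52 and 34.2, 29.5 and 32.6 CPM under sh50 (log2 difference 0.47; edgeR, adjusted p = 0.000517). The sensor values did not overlap between the hairpins. The count was 4 without sh50 replicate 2. In the list of MHC class I and antigen processing genes, 9 of 19 measured members were higher in sh52 and 0 lower (47.4%, beside 5.48% of all genes, median 0.19). They included the immunoproteasome subunit PSMB9 (log2 difference 0.76), the chaperone calreticulin (CALR, 0.50), the light chain B2M (0.35) and HLA-F (0.60), and counts of HLA genes are uncertain because their sequences are much alike. PSMB9 measured 37.6, 34.3 and 39.5 CPM under sh52 and 22.4, 21.9 and 21.6 CPM under sh50, without overlap.

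The promoter windows of 4 of the interferon genes are shown because they carry the ISRE letters within the bases before the annotated start. Capitals mark the match, each sequence is given along the strand of its gene, and the sequences are from RefSeq (GRCh38.p14).
IFI27, chr14:94110618-94110647, plus strand: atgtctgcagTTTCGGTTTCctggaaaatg
EPSTI1, chr13:42992272-42992301, minus strand: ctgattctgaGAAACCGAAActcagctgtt
IFI6, chr1:27672329-27672358, minus strand: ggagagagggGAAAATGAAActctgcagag
DDX60, chr4:168318821-168318850, minus strand: gtgctgaaggGAAACTGAAAcctaagtgct
The motif searched was TTTC, any 2 bases and TTTC again, on both strands, in windows of 250 bases before to 50 bases after the start. It was found in 22 of the 34 interferon genes with a window (64.7%) and in 15 of the 25 that were higher in sh52 (60%). Over all 10984 tested genes with a window the share was 2.78%, and it was 5.69% among all genes higher in sh52 and 1.97% among all genes lower. A match is a description of the letters and not a bound site.

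NF-κB targets, which inflammatory signals induce, were higher in 4 of 22 measured members and lower in 0 (18.2%, beside 5.48% of all genes, median 0.18). The members were C3, IL6, BIRC3 and SOD2. BIRC3, an inhibitor of cell death, measured 63.2, 57.1 and 56.5 CPM under sh52, 34.1, 39.1 and 31.6 CPM under sh50 and 80.6 CPM on average under shCtrl (log2 difference 0.76; edgeR, adjusted p = 1.74e-06). SOD2, the mitochondrial superoxide dismutase, had a log2 difference of 0.27. The call of IL6 did not hold without sh50 replicate 1, 2 or 3 or without sh52 replicate 2 (edgeR, adjusted p up to 0.0653), and the list's count was 7 with GC and length trends removed. RELA, the main activating subunit of NF-κB, measured 61.7, 60.5 and 69.7 CPM under sh52 and 65.5, 65.0 and 62.9 CPM under sh50 and overlapped (log2 difference -0.010; edgeR, adjusted p = 0.954).

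**Figure D3:**
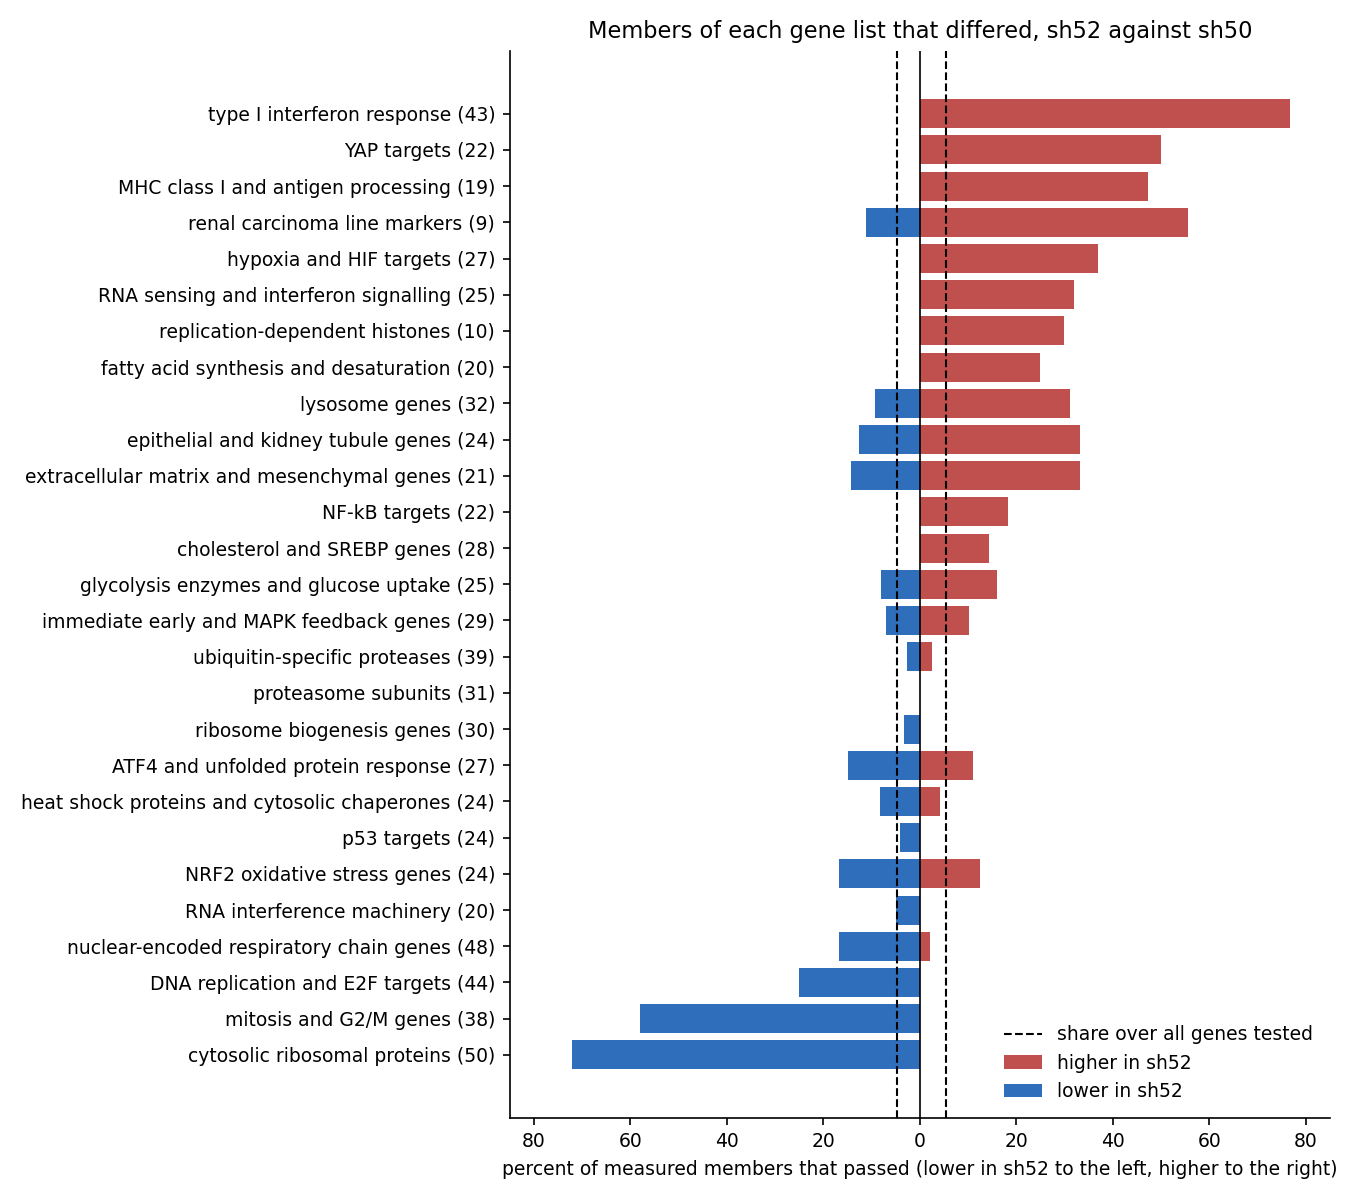
Percent of the measured members of 27 gene lists (number measured in brackets) that passed the edgeR test, higher in sh52 to the right and lower in sh52 to the left. Dashed lines give the shares over all genes tested, 5.48% higher and 4.74% lower; interferon genes reach 76.7% on the right and cytosolic ribosomal proteins 72% on the left.

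Genes of cell division were lower in sh52. Of 38 measured mitosis and G2/M genes 22 were lower and 0 higher (57.9%, beside 4.74% of all genes), with a median log2 difference of -0.31. CDK1, the kinase that drives entry into mitosis, measured 37.6, 34.2 and 33.2 CPM under sh52, 50.9, 53.8 and 46.5 CPM under sh50 and 41.5 CPM on average under shCtrl (log2 difference -0.52, SE 0.086; edgeR, adjusted p = 0.000181). TOP2A, the topoisomerase that untangles sister chromatids, measured 111.6, 101.7 and 105.1 CPM under sh52 and 135.2, 148.5 and 159.1 CPM under sh50 (log2 difference -0.48; edgeR, adjusted p = 5.63e-05). The mitotic kinesins KIF14 and KIF23 had log2 differences of -0.61 and -0.46. In all 4 genes the sh52 values lay below the sh50 values. The mean log2 level over the list, relative to the control mean, was -0.15, -0.21 and -0.14 under sh52, 0.065, 0.17 and 0.17 under sh50, and -0.073, 0.16 and -0.092 under shCtrl. The hairpin groups did not overlap, but control replicate 2 lay at the level of the sh50 libraries and the other control libraries lay between the hairpins. The count was 9 without sh50 replicate 2, 11 without sh52 replicate 2, 14 without sh50 replicate 3 and 14 without sh52 replicate 3, and 8 of the 22 genes passed whichever library was left out.

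DNA replication genes and targets of the E2F factors were lower in sh52 in 11 of 44 measured members and higher in 0 (25%, beside 4.74% of all genes, median -0.26). MCM7, a subunit of the replicative helicase, measured 82.5, 87.6 and 93.2 CPM under sh52, 115.5, 118.3 and 115.0 CPM under sh50 and 81.3 CPM on average under shCtrl (log2 difference -0.41, SE 0.067; edgeR, adjusted p = 0.000207). CDT1, which loads that helicase, averaged 12.4 ± 0.38 CPM under sh52 and 18.3 ± 0.72 CPM under sh50 (SD, n = 3 each; log2 difference -0.56; edgeR, adjusted p = 0.00387). The sh52 values of MCM7 and CDT1 were near the control and the sh50 values above it. Relative to shCtrl the list had a median of 0.10 under sh52, with 3 of 44 members higher and 1 lower. There 5.45% of all genes were higher and 6.56% lower. Under sh50 the median was 0.40, with 27 members higher and 0 lower, beside 10.2% and 11.3% of all genes. The count of members lower in sh52 was 5 without sh50 replicate 2, 7 without sh50 replicate 3 and 7 without sh52 replicate 2, and 4 of the 11 genes passed whichever library was left out. Replication-dependent histone mRNAs mostly lack a poly(A) tail and are little captured in such libraries. Of these histones 10 were measured, and 3 (H2BC5, H2BC21 and H2BC12) were higher (30%, beside 5.48% of all genes) and 0 lower. Their log2 differences were 0.44, 0.35 and 0.27, and none of the 3 passed without sh50 replicate 2.

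Promoters of mitotic genes often hold the cell-cycle genes homology region (CHR). Its letters, TTTGAA on either strand, are shown in 3 mitotic genes that were lower in sh52, in RefSeq windows given along the gene's strand, with the match in capitals.
CDK1, chr10:60778158-60778187, plus strand: gagtataataaaTTTGAActgtgccaatgc
KIF23, chr15:69414282-69414311, plus strand: ctgattggcccgTTTGAAatgcgccaggcg
TOP2A, chr17:40418030-40418059, minus strand: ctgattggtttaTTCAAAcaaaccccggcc
It was found in 21 of 32 mitosis genes with a window (65.6%) and in 14 of the 19 lower in sh52 (73.7%), beside 9.51% of all windows and 14.8% of those of all genes lower in sh52. The E2F letters TTTNGCGC were found in 15 of 39 replication genes (38.5%) and in 5 of the 10 lower in sh52 (50%), beside 3.05% of all windows. The CHR and ISRE letters can share a few bases with one another where they meet, and a match is again a description only.

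Cytosolic ribosomal protein mRNAs were lower in sh52 in 36 of 50 measured members and higher in 0 (72%, beside 4.74% of all genes). Their median log2 difference was -0.22. RPLP1, of the acidic stalk of the large subunit, measured 961.3, 1065 and 1018 CPM under sh52, 1403, 1360 and 1251 CPM under sh50 and 1123 CPM on average under shCtrl (log2 difference -0.40, SE 0.052; edgeR, adjusted p = 1.03e-05). RPL9 had 285.2, 326.1 and 297.5 CPM under sh52 and 414.7, 423.3 and 363.3 CPM under sh50 (log2 difference -0.40; edgeR, adjusted p = 9.92e-05). The sh52 values of both genes lay below those of sh50. The mean log2 level over the list, relative to the control mean, was -0.025, 0.035 and 0.036 under sh52, 0.28, 0.25 and 0.15 under sh50, and -0.067, -0.0083 and 0.075 under shCtrl. The sh52 libraries overlapped the control libraries and the sh50 libraries lay above both. These genes have many processed pseudogenes, so their estimated counts can be split, and 27 of the 36 passed whichever library was left out. The share of mitochondrial rRNA was also lower under sh52 (3.54% to 3.80%) than under sh50 (4.11% to 4.42%), but it was above the control (2.54% to 2.70%) under both hairpins, and its part in the result was not tested.

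Other lists of gene expression machinery changed less. Of 30 measured ribosome biogenesis genes 1 was lower (3.33%, beside 4.74% of all genes) and 0 higher. The call of that gene, FBL (log2 difference -0.26), did not hold without sh50 replicate 1, 2 or 3 or sh52 replicate 1 (edgeR, adjusted p up to 0.165). Of 48 nuclear-encoded respiratory chain genes 8 were lower (16.7%, beside 4.74% of all genes) and 1 higher (2.08%, beside 5.48%), with a median of -0.078. However, 0 of these 9 calls held for every library left out. Without sh50 replicate 1 or sh50 replicate 2 the count of members lower was 0, and without sh52 replicate 1 or 3 it was 2. It was 4 without control replicate 2 and 5 with the 6 libraries alone. NDUFA1, an accessory subunit of complex I, measured 25.7, 48.8 and 39.8 CPM under sh52 and 64.8, 66.8 and 41.0 CPM under sh50, with overlapping values. Of 31 proteasome subunits 0 passed in either direction in edgeR and 0 in DESeq2, while 4 had an unadjusted edgeR p under 0.05, and their log2 differences lay between -0.10 and 0.17. With GC and length trends removed, or without sh50 replicate 1, 1 subunit was higher.

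**Figure D4:**
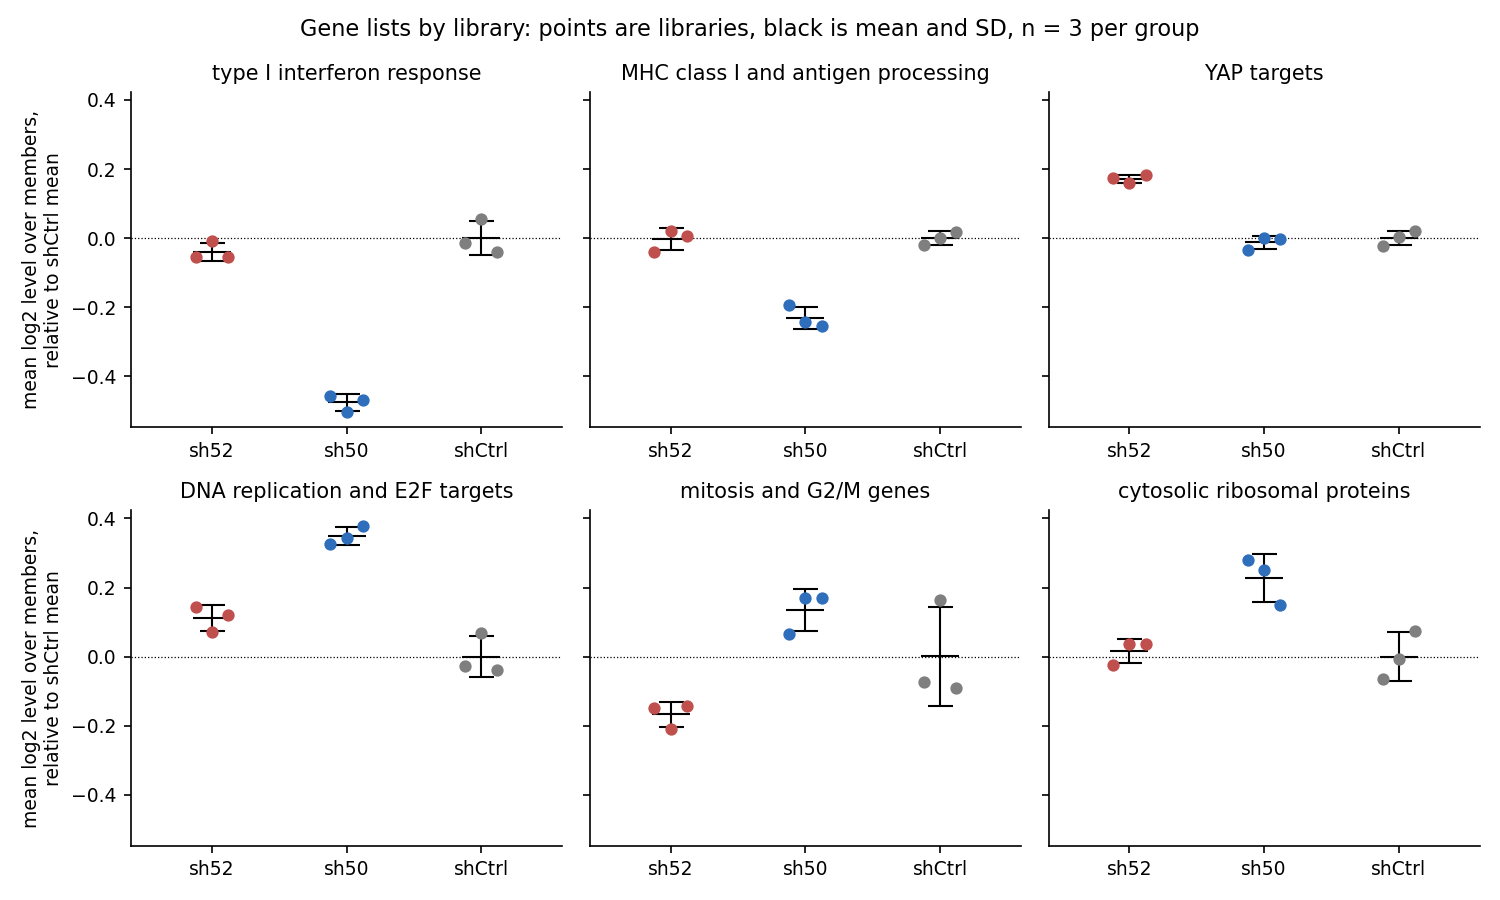
Mean log2 level over the members of 6 gene lists in each library, relative to the mean of the 3 shCtrl libraries (points), with the mean and SD per group in black. For interferon and MHC class I genes the sh50 libraries lie below shCtrl and the sh52 libraries at its level, for YAP targets the sh52 libraries lie above both, and for replication genes and ribosomal proteins the sh50 libraries lie highest.

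YAP is a transcriptional coactivator held back by the Hippo kinases. Of 22 measured YAP targets 11 were higher in sh52 and 0 lower (50%, beside 5.48% of all genes, median log2 difference 0.22). AXL, a receptor tyrosine kinase, measured 160.6, 166.3 and 173.7 CPM under sh52, 117.1, 112.7 and 112.2 CPM under sh50 and 117.8 CPM on average under shCtrl (log2 difference 0.55, SE 0.058; edgeR, adjusted p = 4.86e-07). CCN1, a secreted matricellular protein, measured 1484, 1307 and 1435 CPM under sh52, 1039, 995.7 and 978.0 CPM under sh50 and 1012 CPM on average under shCtrl (log2 difference 0.49, SE 0.050; edgeR, adjusted p = 3.27e-07). Here the sh52 libraries were the ones away from the control. MYOF (0.45), which encodes a membrane-repair protein, and AMOTL2 (0.40), which encodes a junction protein that binds YAP, differed in the same direction. The mean log2 level over the list was 0.17, 0.16 and 0.18 under sh52, -0.033, -0.00045 and -0.0014 under sh50 and -0.023, 0.0036 and 0.019 under shCtrl. The count was 7 without sh50 replicate 1 and 7 without sh52 replicate 1. The TEAD letters GGAATG were found in 7 of the 16 YAP targets with a promoter window (43.8%), beside 10.9% of all windows.

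Of 27 hypoxia and HIF targets 10 were higher in sh52 (37%, beside 5.48% of all genes) and 0 lower in edgeR. The median over the list was only 0.088, and 2 were lower with GC and length trends removed. The members higher in sh52 included the collagen-modifying enzymes P4HA1 (0.37), P4HA2 (0.44) and PLOD2 (0.31) and the endoplasmic reticulum oxidase ERO1A (0.39). P4HA2 averaged 79.9 CPM under sh52, 58.9 CPM under sh50 and 84.7 CPM under shCtrl, so that the sh50 mean was below those of the other groups. Of the HIF subunits, EPAS1 (HIF-2α) measured 64.7, 75.4 and 76.5 CPM under sh52 and 60.8, 53.4 and 60.1 CPM under sh50 (log2 difference 0.31; edgeR, adjusted p = 0.00732). That call did not hold without sh50 replicate 2 or sh52 replicate 3 (edgeR, adjusted p up to 0.0754). HIF1A had a log2 difference of 0.29 (edgeR, adjusted p = 0.0824) and VHL one of -0.13 (edgeR, adjusted p = 0.30), and neither passed. Among 25 glycolysis genes 4 were higher (SLC2A1, PFKP, LDHA and PFKFB3) and 2 lower (LDHB and ENO2), with a median of 0.018. These shares were 16% and 8%, beside 5.48% and 4.74% of all genes. The call of ENO2 did not hold without sh50 replicate 1, 2 or 3, sh52 replicate 2 or 3 or control replicate 2 (edgeR, adjusted p up to 0.156). SLC2A1, the glucose transporter GLUT1, measured 429.0, 457.4 and 462.7 CPM under sh52 and 325.5, 295.2 and 305.9 CPM under sh50 (log2 difference 0.54; edgeR, adjusted p = 1.06e-07). The lactate dehydrogenase subunits differed in opposite directions, LDHA by 0.30 and LDHB by -0.30.

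Lipid synthesis genes were higher in sh52 where they passed. Of 28 cholesterol and SREBP genes 4 were higher (14.3%, beside 5.48% of all genes) and 0 lower (median 0.11). Of 20 genes of fatty acid synthesis and desaturation 5 were higher (25%) and 0 lower (median 0.10), with 3 higher without sh50 replicate 2. INSIG1, which retains the SREBP complex in the endoplasmic reticulum, measured 206.7, 178.9 and 191.6 CPM under sh52, 128.3, 140.2 and 147.4 CPM under sh50 and 209.8 CPM on average under shCtrl (log2 difference 0.47; edgeR, adjusted p = 3.84e-05). SCD, the stearoyl-CoA desaturase, measured 1180, 1188 and 1195 CPM under sh52, 987.0, 962.8 and 1003 CPM under sh50 and 1398 CPM on average under shCtrl (log2 difference 0.27; edgeR, adjusted p = 0.000112). The values of neither gene overlapped between the hairpins, and the medians relative to shCtrl were -0.23 under sh52 and -0.37 under sh50 for the cholesterol list, and -0.15 and -0.34 for the fatty acid list in the same order.

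Stress lists were split. Of 27 genes of the ATF4 and unfolded protein response 3 were higher (11.1%, beside 5.48% of all genes) and 4 lower (14.8%, beside 4.74%), with a median of 0.029. The count lower was 2 without sh50 replicate 1, sh50 replicate 2 or sh52 replicate 3, and the count higher was 7 with GC and length trends removed. The endoplasmic reticulum chaperones HSPA5 (log2 difference 0.28) and HSP90B1 (0.31) were higher, whereas the serine synthesis enzyme PSAT1 (-0.54) and the cystine transporter SLC7A11 (-0.58) were lower. PSAT1 measured 77.8, 70.5 and 80.3 CPM under sh52, 108.8, 116.1 and 108.4 CPM under sh50 and 136.8 CPM on average under shCtrl (edgeR, adjusted p = 1.81e-06). HSPA5 measured 1133, 1156 and 1181 CPM under sh52, 959.4, 919.6 and 984.1 CPM under sh50 and 1165 CPM on average under shCtrl (edgeR, adjusted p = 0.000129). PSAT1 was farther from the control under sh52, and HSPA5 under sh50. Of 24 heat shock proteins and cytosolic chaperones 1 was higher (4.17%, beside 5.48% of all genes) and 2 lower (8.33%, beside 4.74%), with a median of -0.0012. The higher one, HSPA1A, did not pass in DESeq2, with the 6 libraries alone, without the filter, with the replicate block, or without sh50 replicate 1, 2 or 3, sh52 replicate 2 or 3 or control replicate 2 (edgeR, adjusted p up to 0.163). Of the lower ones HSPE1, the mitochondrial co-chaperonin, passed throughout, and HSPD1, its partner, did not pass with the replicate block or without any 1 of the libraries other than control replicate 3 (edgeR, adjusted p up to 0.135). Of 24 NRF2 genes 3 were higher (12.5%) and 4 lower (16.7%), with a median of 0.060. The count higher was 6 with GC and length trends removed, and 1 without sh50 replicate 2 or 3 or control replicate 2. It was also 1 with the replicate block, in which same-numbered libraries are treated as pairs. Of 24 p53 targets 0 were higher in edgeR and 1 in DESeq2, and 1 was lower (4.17%, beside 4.74% of all genes). The lower one was TP53INP1 (log2 difference -0.23), whose call did not hold without sh50 replicate 2 or 3 or sh52 replicate 2 or 3 (edgeR, adjusted p up to 0.106).

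Matrix, epithelial and lysosome genes were found on both sides, more of them higher in sh52. Of 21 extracellular matrix genes 7 were higher (33.3%, beside 5.48% of all genes) and 3 lower (14.3%, beside 4.74%), with a median of 0.11. The count lower was 1 without sh50 replicate 1 or 2, without sh52 replicate 2 or 3, and with the replicate block. Thrombospondin 1 (THBS1) measured 131.5, 125.1 and 134.2 CPM under sh52, 67.2, 66.3 and 80.5 CPM under sh50 and 145.0 CPM on average under shCtrl (log2 difference 0.87, SE 0.068; edgeR, adjusted p = 3.85e-09). The adhesion protein TGFBI was higher (0.46), whereas the laminin β1 chain LAMB1 was lower (-0.38), with 788.0, 771.3 and 745.4 CPM under sh52 and 989.5, 1003 and 1015 CPM under sh50. Of 24 epithelial and kidney tubule genes 8 were higher (33.3%) and 3 lower (12.5%), with a median of 0.17. Among them the keratin KRT19 (0.66) and the kidney cadherin CDH16 (0.27) were higher, and the pore-forming claudin CLDN2 (-0.48) was lower. KRT19 measured 47.6, 53.3 and 53.1 CPM under sh52, 30.1, 32.8 and 34.2 CPM under sh50 and 66.3 CPM on average under shCtrl. Without sh50 replicate 1 or 2 or sh52 replicate 3 the count of epithelial genes higher was 4, and without sh50 replicate 3 it was 5. The count lower was 1 without sh50 replicate 2, sh50 replicate 3 or sh52 replicate 1, and 3 of the 11 epithelial calls held whichever library was left out. Of 32 lysosome genes 10 were higher (31.2%) and 3 lower (9.38%), with a median of 0.049. The higher ones were led by CD68 and the carboxypeptidase CTSZ (0.34). Their count was 4 without sh50 replicate 2 and 6 without sh50 replicate 1, where the count lower was 1. Of 29 immediate early and MAPK feedback genes 3 were higher (IER3, FOSL2 and KLF6) and 2 lower (DUSP6 and MYC), with a median of -0.043. These shares were 10.3% and 6.9%, beside 5.48% and 4.74% of all genes, and 7 genes were higher with GC and length trends removed. IER3, an early-response regulator of apoptosis, and FOSL2, an AP-1 subunit, had log2 differences of 0.43 and 0.29 that held whichever library was left out, while the calls of DUSP6 and MYC did not hold without sh50 replicate 1 (edgeR, adjusted p up to 0.0605) and that of KLF6 did not hold without sh50 replicate 1, 2 or 3, sh52 replicate 1 or 3 or control replicate 2 (edgeR, adjusted p up to 0.133).

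Genes of the knockdown machinery and of the USP family differed little. Of 20 measured genes of RNA interference 0 were higher and 1 lower (5%, beside 4.74% of all genes). The lower one was RAN (log2 difference -0.20), the GTPase that powers nuclear export of hairpin precursors. Its call did not hold without sh50 replicate 1, sh52 replicate 1 or sh52 replicate 3 (edgeR, adjusted p up to 0.102). Of 39 measured ubiquitin-specific proteases 1 was higher (USP47, log2 difference 0.24) and 1 lower (USP36, -0.24), 2.56% each, beside 5.48% and 4.74% of all genes. The call of USP47 did not hold without sh50 replicate 3 or sh52 replicate 3 (edgeR, adjusted p up to 0.0602), and that of USP36 did not hold without sh50 replicate 1 or 3 (edgeR, adjusted p up to 0.0661).

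Markers of the line and of other cell types were read in the same way. Of 9 measured renal carcinoma line markers 5 were higher (55.6%, beside 5.48% of all genes) and 1 lower (11.1%, beside 4.74%), the lower one with a log2 difference of -0.25. VIM measured 3005, 2938 and 3007 CPM under sh52 and 2643, 2608 and 2710 CPM under sh50 (log2 difference 0.17; edgeR, adjusted p = 0.00272). PAX8, the renal lineage factor, lay between 514.2 and 552.0 CPM in all 6 libraries. All summed marker levels are in CPM without TMM scaling. The 10 line markers summed to 5460 to 5520 CPM under sh52, 4920 to 5030 CPM under sh50 and 6520 to 6560 CPM under shCtrl. The count of line markers higher was 3 without sh50 replicate 2 or 3 and 2 without sh52 replicate 3, and the count lower was 0 without sh50 replicate 2, sh50 replicate 3 or sh52 replicate 1. The summed level of the 16 leukocyte markers was 46.1 to 48.6 CPM under sh52, 28.6 to 32.6 CPM under sh50 and 39.1 to 42.2 CPM under shCtrl. Of 3 measured members 1, CD68, passed. CD68 alone made up most of this sum and of its difference between the hairpins. CD3E, NKG7, TYROBP and AIF1 had 0 counts in all 9 libraries, and 11 of the 16 markers had under 10 counts in every library. The 12 endothelial markers summed to 43.8 to 45.4 CPM under sh52 and 41.0 to 42.0 CPM under sh50, with VWF, KDR and EMCN at 0 in all 9, and 0 of 2 measured members passed in edgeR or DESeq2, with 0 at an unadjusted p under 0.05. The 10 fibroblast and mural markers summed to 25.5 to 27.9 CPM under sh52 and 23.8 to 25.9 CPM under sh50, with PDGFRA at 0, and 0 of 5 measured members passed in edgeR or DESeq2, again with 0 at an unadjusted p under 0.05.

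Some genes lay on opposite sides of the control under the hairpins. Of 13715 genes tested, 20 (0.146%) passed against shCtrl in one direction under sh52 and in the other under sh50 and also passed between the hairpins, 13 of them higher in sh52 and 7 lower. The comparisons with control share the control libraries. The 9 genes described here are among those with the largest difference between the hairpins. SAA1 differed from shCtrl by 1.04 under sh52 and by -0.93 under sh50 on the log2 scale. C3 differed by 0.50 under sh52 and -0.84 under sh50, and UCA1 by 0.29 under sh52 and -1.02 under sh50. CD68, a lysosomal membrane glycoprotein used as a macrophage marker, measured 36.6, 36.3 and 37.5 CPM under sh52, 18.2, 18.3 and 22.6 CPM under sh50 and 29.9 CPM on average under shCtrl, with log2 differences from shCtrl of 0.30 under sh52 and -0.59 under sh50. ZNF503, a zinc-finger transcription factor, was the 1 gene of these 9 that was lower in sh52, with 33.9, 51.6 and 44.9 CPM under sh52, 76.1, 80.4 and 71.5 CPM under sh50 and 55.8 CPM on average under shCtrl. The activin-binding protein FSTL3, the phospholipase PLCB4, filaggrin (FLG) and the renal membrane protein PDZK1IP1 had log2 differences of 0.33 to 0.41 under sh52 and of -0.37 to -0.27 under sh50. Every call between sh52 and sh50 in these 9 genes held whichever library was left out.

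**Figure D5:**
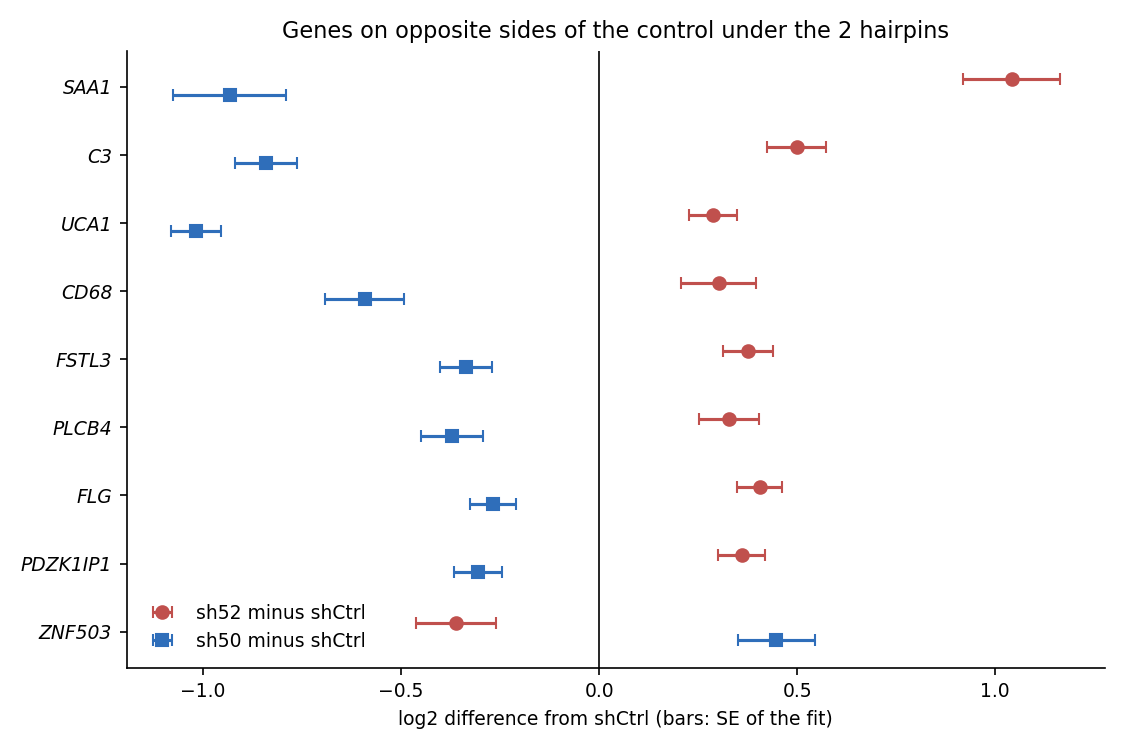
Log2 difference from shCtrl, with the SE of the edgeR fit, under sh52 (red circles) and under sh50 (blue squares) for 9 genes that passed in opposite directions. SAA1, at 1.04 under sh52 and -0.93 under sh50, is the widest apart, and ZNF503 is the gene that is lower under sh52 and higher under sh50; both sets of values share the control libraries.

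Matches to the guide seeds were set against the gene differences. Genes with a 3′ UTR match to the sh50 guide seed (AATTGAT, 1698 genes) had a median log2 difference between sh52 and sh50 of 0.028, and genes without it one of -0.0023. Relative to shCtrl the genes with this site had a median of -0.021 under sh52 and -0.049 under sh50. Genes without it had 0.000255 and 0.0068 in the same order. Genes with a match to the sh52 guide seed (AACTCAT, 1497 genes) had a median difference between the hairpins of 0.011, and genes without it one of 0.0011. Relative to shCtrl the genes with the sh52 site had a median of -0.036 under sh52 and -0.046 under sh50. Those without it had 0.0022 and 0.0056 in the same order. All of these medians lay within 0.05 of 0. Genes with a site had longer 3′ UTRs, with a median of 3300 bases for the sh50 site and 1110 bases without it. With GC and length trends removed the median differences between the hairpins were 0.0014 for the sh50 site and -0.0094 for the sh52 site. Of the genes with a sh52 site 6.48% were higher and 3.14% lower in sh52, beside 5.82% and 5.04% of the genes without it. Of the genes with a sh50 site 5.54% were higher and 3.36% lower, beside 5.95% and 5.04% of the genes without it. These groups hold only genes with an annotated 3′ UTR, whereas the shares over all genes tested were 5.48% and 4.74%.

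Base composition and position also went with the differences. Genes lower in sh52 had a median transcript GC content of 53.7% and genes higher in sh52 one of 49.5%, beside 48.6% over all genes. From the fifth of genes with the lowest GC content to the fifth with the highest, the median log2 difference ran through 0.033, 0.023, 0.013, -0.022 and -0.062. On chromosome 9, 57 of 566 genes were lower (10.1%, beside 4.74% of all) and 26 higher, with a median of -0.055, and -0.041 with GC and length trends removed. On chromosome 15, 34 of 461 were lower (7.38%) and 14 higher (3.04%), with a median of -0.060 and, with the trends removed, -0.063. On chromosome 17, 61 of 836 were lower (7.3%) and 18 higher (2.15%), with a median of -0.052 and, with the trends removed, -0.038. On chromosome 3, which carries USP13, 68 of 778 were higher (8.74%, beside 5.48% of all) and 27 lower (3.47%), with a median of 0.023 and, with the trends removed, 0.011. Chromosome 1 (7.88% higher, 3.28% lower) and chromosome 2 (6.88% higher, 3.01% lower), which do not carry USP13, leaned the same way. What these shares rest on was not tested.

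The series' other experiment holds hairpins sh45 and sh43, in separate libraries. Their titles name ZHX2, a zinc-finger and homeobox transcription factor, as the target. The labels conflict here, since their protocol text gives 43 and 45 as hairpins to USP13, and the titles were followed. In CPM without TMM scaling, ZHX2 averaged 82.8 ± 5.91 under sh45, 40.1 ± 2.94 under sh43 and 348.7 ± 2.58 under the control of that experiment, and USP13 averaged 45.7 ± 3.22, 35.2 ± 3.60 and 42.1 ± 3.14 in the same groups (SD, n = 3 each). ZHX2 was thus low under both hairpins and differed between them (log2 difference 1.06, sh45 minus sh43; edgeR, adjusted p = 5.56e-14). USP13 differed between them too (log2 difference 0.39; edgeR, adjusted p = 0.000127). There 34.2% of 13604 genes were higher in sh45 than in sh43 and 32.7% were lower, against 5.48% and 4.74% for sh52 over sh50. The difference of the pairs, tested over all 18 libraries after the data had been seen, passed for 52.6% of 14207 genes. It was taken as sh52 minus sh50 against sh45 minus sh43. Nothing in the labels matches sh45 to sh52, so this order is arbitrary. The share of 52.6% and the directions and counts that follow depend on it. Of the interferon genes 31 of 43 were higher in sh45 and 3 lower (median 0.63). The difference of the pairs passed in 25 of the 43, beside 52.6% of all genes, 7 with the larger value in the USP13 pair and 18 with the larger value in the ZHX2 pair. Of the cytosolic ribosomal proteins 45 of 50 were higher in sh45 and 0 lower (median 0.37). With sh43 and sh45 exchanged, these directions would turn. The difference of the pairs passed in 47 of the 50, beside the same 52.6%, 0 with the larger value in the USP13 pair. For the YAP targets 5 of 22 were higher in sh45 and 13 lower (median -0.46). The difference of the pairs passed in 17 of the 22, beside the same 52.6%, 14 with the larger value in the USP13 pair and 3 with the larger value in the ZHX2 pair. IFI27 differed by 2.37 between sh45 and sh43 and by 1.59 between sh52 and sh50 (edgeR, adjusted p of the difference of the pairs = 0.00881), whereas C3 differed by -0.18 between sh45 and sh43 and by 1.34 between sh52 and sh50 (edgeR, adjusted p = 1.26e-16).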

How the data were processed

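The series holds polyadenylated RNA from 786-O cells with hairpins against USP13 or ZHX2, sequenced in pairs; samples were grouped by their titles. Per the file headers, the authors quantified each library with Salmon by RefSeq transcript, and the deposited estimated counts were whole numbers (100% within 1e-06). Per the file headers, the deposited TPM values are scaled for effective length, and they served only to weight transcripts when effective lengths were used as offsets. The submitters' processing notes name Salmon 0.11.3, STAR 2.5.2b, the trimmer cutadapt 1.12, the build hg19 and DESeq2 1.14.1, with no role or order.

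Here, 60422 transcripts per library were summed to 27086 genes, with 1342 of them being further copies of a transcript. RefSeq named 59301, GENCODE named 684, and 437 unnamed transcripts, with 0.1076% to 0.1204% of counts in the 9 libraries, stayed out of the tests. The 9 libraries of the USP13 experiment were fitted together with edgeR 4.0.16 in R 4.3.3 (filterByExpr, TMM, quasi-likelihood test, Benjamini-Hochberg adjustment over all 13715 genes). Differences are sh52 minus sh50, and a gene passed at an adjusted p under 0.05. The edgeR fit was also run on simulated counts, with means and dispersions taken from the 9 libraries. Alternatives were DESeq2 1.42.0, other size factors, no filter, the 6 libraries alone, a replicate block, effective lengths as offsets, removal of GC and length trends, and each library left out. The contrast with the ZHX2 hairpins was added after seeing the data. No replicates agreed within sampling noise.

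Genes were named by rule: USP13; the 12 largest differences in each direction among genes that passed with at least 5 CPM in a hairpin group and no overlap; up to 6 members per list; up to 10 genes that passed against control in opposite directions; USP5, ZHX2, RELA, HIF1A, EPAS1 and VHL; and whole lists of 10 or fewer members. STAT2, IRF9, ISG20 and LGALS3BP, and DDX60 for its promoter, were named after their values were seen. The comparison and the 30 gene lists were chosen with earlier results of these data known. Some named genes are not reported here, though list counts include them.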

Additional observations from a re-analysis of the deposited data

Results flagged for a closer look

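The genes below are given here because they passed against shCtrl in one direction under sh52 and in the other under sh50, with the difference between the hairpins itself tested. Their log2 differences between sh52 and sh50 were 1.97 for SAA1, 1.34 for C3, 1.30 for UCA1, 0.893 for CD68, 0.712 for FSTL3, 0.698 for PLCB4, 0.673 for FLG and 0.666 for PDZK1IP1, all higher in sh52. ZNF503 was lower in sh52, at -0.809. Of 13715 genes tested, 20 (0.146%) met this description, 13 higher and 7 lower in sh52, and these 9 are among those with the largest differences. All 9 passed the edgeR test between the hairpins with each of the 9 libraries left out in turn, and both comparisons with shCtrl share the control libraries.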

How the results depend on the processing

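The USP13 difference kept its direction and stayed short of the threshold under every alternative run, between -0.159 and -0.006. The genes differing between sh52 and sh50 numbered 1999 with GC and length trends removed, 1681 without the filter, 1424 with effective lengths as offsets, 1391 with DESeq2 (266 adjusted p-values not given), 1197 with the 6 libraries alone and 614 at an adjusted p under 0.01. With each library left out it ranged from 685 to 1513, with 408 to 795 genes higher and 277 to 718 lower; the cause was not tested. Replicate numbers did not pair the samples (r of same-numbered deviations -0.103 to 0.055), and the replicate block gave 1182 genes, 1169 of them shared with the fit without it. The USP13 difference under the block was -0.106. Signs turned only in genes that did not pass. With GC and length trends removed COL1A1 stood at 0.015 and RELA at 0.011. Over the libraries left out, the ranges that crossed 0 were -0.170 to 0.204 for COL1A1, -0.076 to 0.029 for RELA, -0.894 to 0.146 for CD14, -0.409 to 0.148 for ESAM, -1.048 to 0.262 for gene H1-4, -0.126 to 0.369 for H3C4, -0.051 to 0.206 for ITGAX, -0.130 to 0.422 for LUM and -0.013 to 0.033 for PAX8. With 3 libraries per group, small differences and genes of a few CPM were the least certain.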
